A study of Homo sapiens with 6 samples.

Results

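Matricellular and secreted matrix proteins are described here through 10 genes chosen by name, *FN1*, *CTHRC1*, *TNC*, *THBS1*, *SPARC*, *POSTN*, *TGFBI*, *LGALS1*, *LGALS3* and *FBLN1*, out of the 25442 genes of the table. All 10 have an entry, and 8 of them reached 1 FPKM on average and were tested among 12493 genes. FPKM by its definition counts the fragments of a gene per kilobase of transcript, scaled to the number of fragments of the library. The deposited values were read as FPKM, and how they were scaled between libraries is not given. The values come from RNA-seq of YAPC, a human pancreatic ductal adenocarcinoma (PDA) cell line used as a model of the classical subtype. The 3 YAPC-iGLI2 libraries were made from rtTA cells with GLI2 in the Dox-inducible plasmid pRetroX-Tight-Puro, and the 3 YAPC-iEV libraries from rtTA cells with the empty plasmid (EV). All 6 were made after 6 days of Dox at 1 μg/ml, and cells without Dox were not analysed here. The groups thus share the rtTA and the drug and differ in the insert. Any other difference that arose when the iEV and iGLI2 cells were engineered cannot be told apart from the insert. The labels do not say whether replicates were separate cultures, and p-values then measure only the spread between these libraries.

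Matricellular proteins are secreted into the extracellular matrix without being its main scaffold, and they change how cells attach to it, move in it and receive growth factor signals from it. In pancreatic cancer, where dense fibrous stroma surrounds the tumor cells, much of this protein class is made by fibroblasts, and tumor cells add members of their own. Fibronectin builds the fibrils on which other members are arranged. Galectins are lectins that cross-link sugar chains on matrix and receptor glycoproteins.

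The labels were checked first on GLI2, the transcription factor of the Hedgehog pathway that was introduced. Its iEV libraries held 0.344 to 0.466 FPKM and its iGLI2 libraries 94.5, 207 and 195 FPKM for replicates 1 to 3. Each library thus had the level its name gives, and iGLI2 replicate 1 had the lowest level of its group. Total FPKM was 981344 to 1082687 in iEV and 803149 to 889559 in iGLI2 libraries. The short RNA gene *MIR4461* held 42.6% to 45.4% and 35.7% to 37.7% of it, so the groups were apart in both. Without small RNA genes the totals of the genes kept were 535563 to 558887 and 490610 to 536662 FPKM, and these overlapped. The number of fragments behind each value is unknown, so no counting error is given. Of the 7 epithelial markers, 5 were tested and the groups differed in some. *EPCAM* had 396 to 418 FPKM in iEV and 521 to 526 FPKM in iGLI2 cells, and *CDH1* 51.0 to 56.3 and 64.8 to 72.5 FPKM, both called higher (log2 ratio 0.37 for each, limma adjusted p = 0.00709 and 0.0169). *KRT7*, *KRT19* and *CLDN4* did not pass, with log2 ratios of -0.23, -0.18 and -0.30, and *CLDN4* was at 250 to 256 FPKM in iEV and 188 to 231 FPKM in iGLI2 cells without overlap. *KRT8* and *KRT18*, keratins of simple epithelia, are listed at 0 in all 6 libraries, so an entry of 0 in this table was not read as absence. The fibroblast markers *COL1A2*, *COL3A1*, *DCN*, *LUM* and *THY1* stood between 0 and 0.0255 FPKM in all libraries, and the sum of the 10 fibroblast markers was 2.35 to 2.91 FPKM in iEV cells and 3.09 to 4.04 FPKM in iGLI2 cells. *COL1A1*, the only one of them that was tested, was called higher, at 1.29 to 1.54 and 2.28 to 2.98 FPKM. The leukocyte marker *PTPRC* was at or under 0.0343 FPKM. The 6 macrophage or leukocyte markers summed to 7.49 to 8.33 FPKM in iEV and 4.14 to 5.21 FPKM in iGLI2 cells, most of it *CD14* and *CD68*. *CD14* was called lower, at 4.10 to 5.26 and 1.30 to 1.94 FPKM (log2 ratio -1.11, limma adjusted p = 0.00274). *CD68*, at 2.89 to 3.27 and 2.79 to 3.08 FPKM, did not pass. The 4 endothelial markers summed to 0.424 to 0.599 FPKM over all libraries. The part of these markers in the results was not tested.

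The 10 genes did not all move in the same direction. *THBS1*, *CTHRC1*, *TNC* and *TGFBI* were higher in iGLI2 cells, *FN1*, *LGALS3* and *LGALS1* were lower, and *FBLN1* did not pass the test. *SPARC* was too low to be tested, and *POSTN*, listed at 0 in every library, was not tested either. Thus 4 members were called higher and 3 lower at an adjusted p under 0.05 in limma, against 10.1% of all genes tested that were called higher, 11.8% called lower and 21.9% called in either direction. The members, and the lists below, were chosen with earlier results of these data known, so such contrasts of shares are descriptions only. The median log2 ratio of the 8 tested members was 0.10, against -0.015 over all genes tested. In all 8 the iGLI2 and iEV libraries did not overlap, as in 42.0% of all genes tested, with 4 members above and 4 below, against 19.2% and 22.8% of all genes. Leaving out iEV replicate 2, or iEV replicate 3, reduced the number called higher to 2. Over all genes, those fits called 617 of 12491 and 633 of 12486 higher, against 1262 of 12493 with all libraries. In bulk RNA, fewer cells that express a gene and less RNA per cell cannot be told apart. A member needed a mean of 1 FPKM to be tested, so these counts leave out the genes at the bottom of the range.

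**Figure D1:**
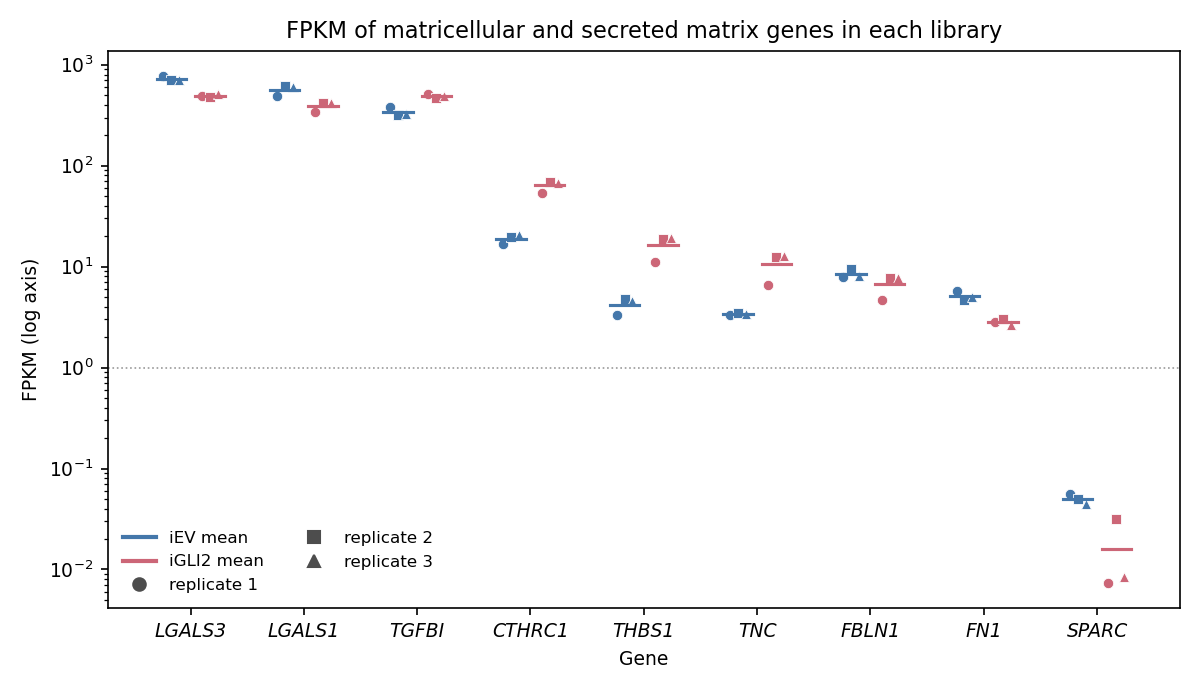
FPKM (log axis) of 9 of the 10 genes in each iEV (blue) and iGLI2 (red) library, with marker shapes for replicates 1 to 3 and a horizontal line at each group mean. *POSTN*, listed at 0 in every library, has no point, and the dotted line marks 1 FPKM. The range runs from the galectins, at 337 to 772 FPKM, down to *SPARC*, at or under 0.0557 FPKM in every library.

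Levels differed between members far more than between conditions. In iEV cells the order of the mean FPKM was *LGALS3*, *LGALS1*, *TGFBI*, *CTHRC1*, *FBLN1*, *FN1*, *THBS1*, *TNC*, *SPARC* and *POSTN*. Only the neighbours *FN1* and *THBS1*, and *THBS1* and *TNC*, had libraries that overlapped in this order. In iGLI2 cells *TGFBI* stood second, at a mean of 489 FPKM with libraries that overlapped those of *LGALS3* at 495 FPKM, followed by *LGALS1*. *THBS1* and *TNC* moved above *FBLN1* and *FN1*, with libraries that overlapped between *THBS1* and *TNC* and between *TNC* and *FBLN1*. The abundant trio was above at least 98.45% of the genes tested in mean FPKM. *FN1*, in contrast, lay above 22.6% of them, although its product is an abundant matrix protein of connective tissue.

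*THBS1* encodes thrombospondin-1, a trimeric glycoprotein that binds the receptor CD47 and can activate latent TGF-beta. It lies on chromosome 15 of hg19 from 39873280 to 39891121. For replicates 1 to 3 its level was 3.29, 4.76 and 4.56 FPKM in iEV cells, against 11.2, 18.7 and 19.4 FPKM in iGLI2 cells. Every iGLI2 library was above every iEV library, and replicate 1 was the lowest in both groups. The log2 ratio of iGLI2 over iEV cells, that is the fold change of FPKM + 1 as limma estimates it, was 1.72 with a standard error of 0.23 (limma adjusted p = 0.00466), and the ratio of group means was 3.91. It had the largest rise of the members and ranked 173 by size of rise among the 12493 genes. In the annotation, 859 exonic bases of *THBS1* are shared with genes of the opposite strand, *THBS1-AS1* and *FSIP1*. The RNA kit that the labels name does not mark strand, so fragments there cannot be told apart.

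*CTHRC1* encodes a secreted glycoprotein with a short collagen repeat that is made in tissue repair, and it lies on chromosome 8 from 104383743 to 104395232. Levels were 16.6, 19.8 and 20.4 FPKM in iEV replicates 1 to 3 and 54.2, 69.0 and 67.8 FPKM in iGLI2 replicates 1 to 3. The groups stood well apart, and the lowest iGLI2 value was above the highest iEV value by more than the spread within either group. The ratio of means was 3.36, and the 95% confidence interval of the log2 ratio of 1.69 ran from 1.39 to 2.00 (limma adjusted p = 7.30e-04), the smallest p of the members. The call passed in each of the 17 alternative settings, with a log2 ratio between 1.61 and 1.80.

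Tenascin-C, the product of *TNC*, is a hexameric glycoprotein that weakens attachment to fibronectin and is made in wounds and tumors. The gene lies on chromosome 9 from 117781854 to 117880536. Its iEV values were close together, at 3.34, 3.45 and 3.40 FPKM in replicates 1 to 3, and its iGLI2 values were 6.62, 12.4 and 12.8 FPKM. The rise was thus unequal within iGLI2 cells, where replicate 1 reached 0.524 of the mean of replicates 2 and 3. The log2 ratio was 1.35 (standard error 0.23, limma adjusted p = 0.0119), and the ratio of means was 3.13. It was 1.62 with both replicate 1 libraries left out (limma adjusted p = 2.88e-04), a setting chosen after the values were seen. The call was lost without iEV replicate 2 (limma adjusted p = 0.0502) and without iEV replicate 3 (limma adjusted p = 0.0511), at log2 ratios of 1.36 and 1.35. Exons of *TNC* share 129 bases with the gene *DELEC1* of the opposite strand.

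*TGFBI* encodes an adhesion protein that is induced by TGF-beta and binds collagen and integrins, and it lies on chromosome 5 from 135364584 to 135399507. It was high in both groups, with 379, 314 and 323 FPKM in iEV replicates 1 to 3 and 508, 468 and 491 FPKM in iGLI2 replicates 1 to 3. Unlike *THBS1*, *CTHRC1* and *TNC*, it had its highest value of both groups in replicate 1. The rise was small in fold, with a ratio of means of 1.44 and a log2 ratio of 0.53 (standard error 0.091, limma adjusted p = 0.0113). In FPKM it was the largest increase of the members, from a mean of 339 ± 35.3 to 489 ± 20.6 (SD, n = 3 each). The limma adjusted p rose to 0.0529 without iEV replicate 2 and to 0.0539 without iEV replicate 3.

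The members that were lower in iGLI2 cells were fibronectin and the galectins. *FN1*, the fibronectin gene, on chromosome 2 from 216225163 to 216300793, had 5.71, 4.68 and 4.99 FPKM in iEV replicates 1 to 3. Its iGLI2 values were 2.83, 3.05 and 2.65 FPKM, each below the lowest iEV value. The 95% confidence interval of its log2 ratio of -0.67 ran from -0.89 to -0.46 (limma adjusted p = 0.00449), with a ratio of means of 0.554. It was called in all 16 alternative settings in which it was tested, and a required mean of 5 FPKM leaves it untested. Ratios to *FN1* were taken for the 3 members with the largest rises. *THBS1* stood at 0.577 to 1.02 times the FPKM of *FN1* in the iEV libraries and at 3.95 to 7.33 times in the iGLI2 libraries. The same ratio for *TNC* was 0.585 to 0.737 and 2.34 to 4.85, and for *CTHRC1* 2.91 to 4.23 and 19.1 to 25.6.

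*LGALS3* encodes galectin-3, a lectin with a single sugar-binding domain and a long flexible tail, and lies on chromosome 14 from 55595935 to 55612148. It was the most abundant member, with 772, 698 and 704 FPKM in iEV replicates 1 to 3 and 493, 475 and 518 FPKM in iGLI2 replicates 1 to 3. All iGLI2 libraries lay below all iEV libraries, and replicate 1 did not stand apart in iGLI2 cells. The log2 ratio was -0.55 (standard error 0.070, limma adjusted p = 0.00417), and the ratio of means was 0.684. The call passed in all 17 alternative settings, with the smallest change, -0.39, under quantile normalization.

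*LGALS1* encodes galectin-1, a lectin that acts as a dimer, and lies on chromosome 22 from 38071613 to 38075809. It had 488, 614 and 595 FPKM in iEV replicates 1 to 3 and 337, 421 and 416 FPKM in iGLI2 replicates 1 to 3. The iGLI2 libraries lay below the iEV libraries, and replicate 1 was the lowest of each group, at 0.807 and 0.806 of the mean of the other libraries of iEV and iGLI2 cells. The log2 ratio of -0.53 (standard error 0.13) was close to that of *LGALS3*, while the limma adjusted p of 0.0361 was nearer the threshold. The call was lost without iEV replicate 2 (limma adjusted p = 0.126), without iEV replicate 3 (0.125), without iGLI2 replicate 2 (0.0749) and without iGLI2 replicate 3 (0.0754). The ratio of *LGALS3* to *LGALS1* lay between 1.14 and 1.58 in iEV libraries and between 1.13 and 1.46 in iGLI2 libraries, so the groups overlapped in it.

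*FBLN1*, on chromosome 22 from 45898719 to 45997014, encodes fibulin-1, a calcium-binding glycoprotein that attaches to fibronectin and elastic fibers. It had 7.97, 9.53 and 7.98 FPKM in iEV replicates 1 to 3 and 4.66, 7.79 and 7.64 FPKM in iGLI2 replicates 1 to 3. The groups did not overlap, but iGLI2 replicates 2 and 3 lay close under iEV replicates 1 and 3. Its log2 ratio of -0.33 had a 95% confidence interval from -0.79 to 0.13 (limma adjusted p = 0.271), so neither no change nor a fall of the size seen for the galectins lies outside it. Without iGLI2 replicate 1 the log2 ratio was -0.12.

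*SPARC* and *POSTN*, which encode the collagen-binding protein SPARC and the fasciclin-domain protein periostin, are widely used as markers of tumor fibroblasts. *SPARC*, on chromosome 5 from 151040657 to 151067468, had 0.0557, 0.0501 and 0.0443 FPKM in iEV replicates 1 to 3 and 0.00743, 0.0320 and 0.00844 FPKM in iGLI2 replicates 1 to 3. The iGLI2 values are all below the iEV values, at a level near the bottom of the table. In the fit with no filter, over 20035 genes, *SPARC* did not pass (limma adjusted p = 0.103). *POSTN*, on chromosome 13 from 38136719 to 38172981, is listed at 0 in every library, so no fold is given. Its closest relative among the members is *TGFBI*, which stood at 314 FPKM or more throughout.

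**Figure D2:**
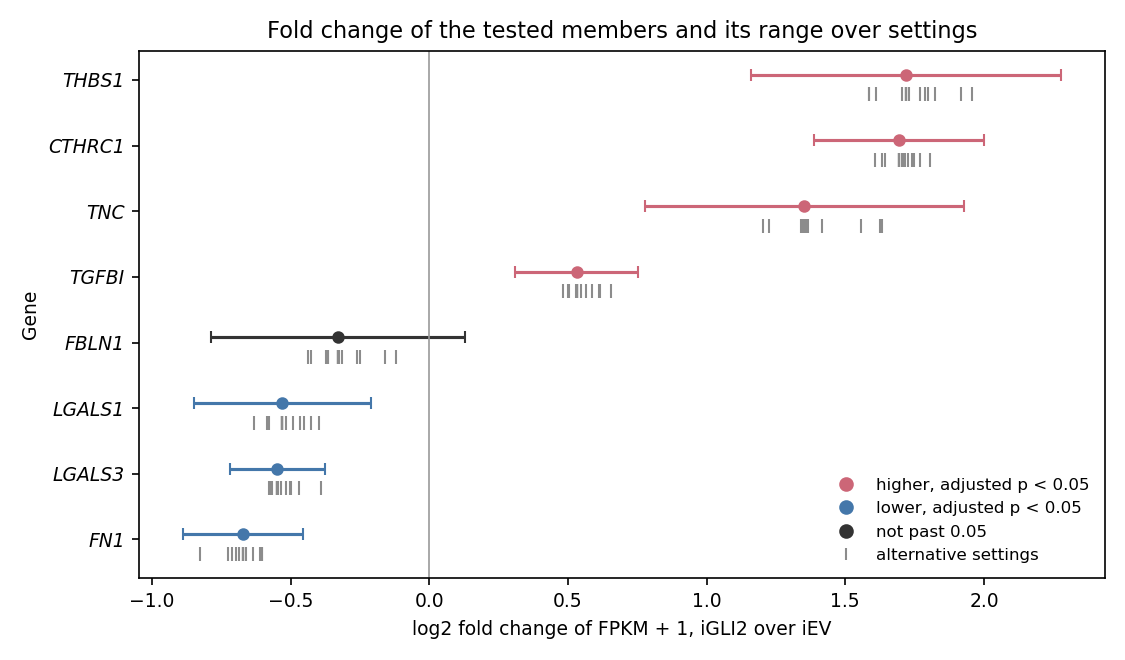
Log2 fold change of FPKM + 1 in iGLI2 over iEV cells for the 8 tested members, as points with 95% confidence intervals from limma, colored by call, with grey ticks for the alternative settings. *THBS1*, *CTHRC1*, *TNC* and *TGFBI* lie to the right of 0 with their ticks, and *FN1*, *LGALS3* and *LGALS1* to the left, while the interval of *FBLN1* crosses 0.

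The sum of the 10 genes was 1664 to 1676 FPKM in iEV libraries and 1419 to 1536 FPKM in iGLI2 libraries, and it is mostly a sum of 3 genes. Total FPKM was also lower in iGLI2 libraries, and its part in this sum was not tested. *LGALS3*, *LGALS1* and *TGFBI* made up 97.5% to 97.8% of it in iEV cells and 92.5% to 94.4% in iGLI2 cells. The share of *TGFBI* was 18.8% to 22.6% in iEV libraries and 31.7% to 35.8% in iGLI2 libraries, and that of *LGALS3* was 41.8% to 46.0% and 32.2% to 34.8%. The libraries of the groups do not overlap in either share. These shares describe the values above and add no test.

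**Figure D3:**
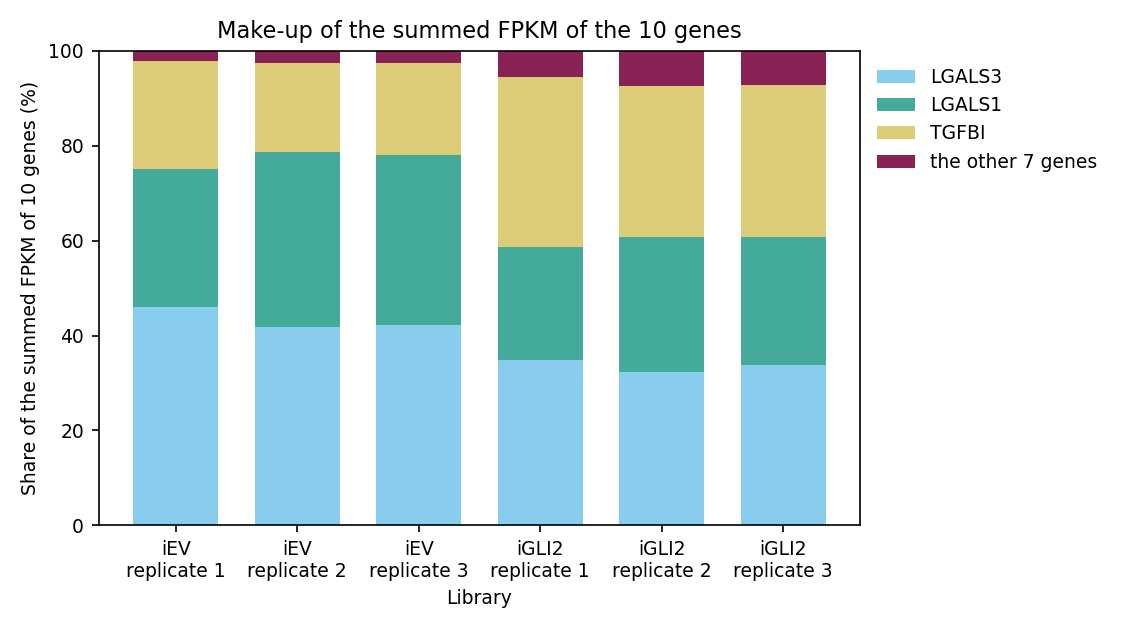
Share of the summed FPKM of the 10 genes, in percent, held by *LGALS3*, *LGALS1*, *TGFBI* and the other 7 genes together, for each library. The *TGFBI* part is larger in all iGLI2 libraries (31.7% to 35.8%) than in all iEV libraries (18.8% to 22.6%).

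iGLI2 replicate 1 was the lowest of its group for *THBS1*, *CTHRC1*, *TNC*, *LGALS1* and *FBLN1*, at 0.588, 0.792, 0.524, 0.806 and 0.604 of the mean of replicates 2 and 3, as it was for GLI2 itself at 0.470. In iEV cells the same ratio was 0.708, 0.826, 0.975, 0.807 and 0.911 for these genes. Replicate 1 was thus also low for *THBS1*, *CTHRC1* and *LGALS1* in cells without the GLI2 insert. The part of the GLI2 level or of the library in these differences was not tested. With both replicate 1 libraries left out, 4 members were called higher and 3 lower. That fit called 2706 genes higher and 2856 lower out of 12503, against 1262 and 1480 of 12493 with all libraries.

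By distance between library profiles, taken as log2(FPKM + 1) minus the mean of each gene over the 6 libraries, the genes most like *THBS1* among 9030 with a mean of at least 5 FPKM were *CST4*, *PIM1* and *CAPN5*, at 0.208, 0.295 and 0.336. *CST4*, which encodes a secreted cystatin with close paralogs, had 23.2 to 29.4 FPKM in iEV cells and 58.2, 103 and 95.0 FPKM in iGLI2 replicates 1 to 3. Replicate 1 was the lowest iGLI2 library for it as for *THBS1*, a likeness that the choice by distance itself favors. For *FN1* the nearest were *TOLLIP*, *JSRP1* and *NUP98*, at 0.151, 0.156 and 0.160.

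Promoter sequence was examined because some members were called higher and others lower. The RefSeq table of promoters (GRCh38.p14) held 8 of the 10 members, and the 250 bases before the annotated start are shown for the 5 called members among these, *THBS1*, *TNC* and *TGFBI*, which were higher, and *FN1* and *LGALS3*, which were lower. Capitals mark letters that match a searched motif on either strand, and each sequence runs 5′ to 3′ along the gene.
THBS1 (chr15:39580829-39581078, plus strand): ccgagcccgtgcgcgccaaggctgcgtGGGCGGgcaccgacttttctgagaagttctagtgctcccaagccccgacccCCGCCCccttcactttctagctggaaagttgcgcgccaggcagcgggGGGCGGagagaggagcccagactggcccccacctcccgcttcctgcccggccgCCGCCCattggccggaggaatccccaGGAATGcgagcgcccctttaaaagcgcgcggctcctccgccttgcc
TNC (chr9:115118158-115118407, minus strand): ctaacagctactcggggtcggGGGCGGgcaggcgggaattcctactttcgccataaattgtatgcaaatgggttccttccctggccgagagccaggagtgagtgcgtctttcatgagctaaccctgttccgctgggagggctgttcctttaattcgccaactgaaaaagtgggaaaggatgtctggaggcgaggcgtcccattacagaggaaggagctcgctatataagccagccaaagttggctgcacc
TGFBI (chr5:136028738-136028987, plus strand): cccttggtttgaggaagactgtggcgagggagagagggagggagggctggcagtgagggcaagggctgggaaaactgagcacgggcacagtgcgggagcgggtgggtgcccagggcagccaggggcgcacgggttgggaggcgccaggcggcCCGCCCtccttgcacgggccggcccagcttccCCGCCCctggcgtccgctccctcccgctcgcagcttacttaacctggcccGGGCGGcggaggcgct
FN1 (chr2:215436069-215436318, minus strand): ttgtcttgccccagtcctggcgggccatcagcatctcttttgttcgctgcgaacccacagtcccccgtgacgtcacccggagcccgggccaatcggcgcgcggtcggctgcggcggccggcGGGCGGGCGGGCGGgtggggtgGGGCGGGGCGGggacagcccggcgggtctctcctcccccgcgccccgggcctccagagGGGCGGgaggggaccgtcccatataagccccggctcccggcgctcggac
LGALS3 (chr14:55129002-55129251, plus strand): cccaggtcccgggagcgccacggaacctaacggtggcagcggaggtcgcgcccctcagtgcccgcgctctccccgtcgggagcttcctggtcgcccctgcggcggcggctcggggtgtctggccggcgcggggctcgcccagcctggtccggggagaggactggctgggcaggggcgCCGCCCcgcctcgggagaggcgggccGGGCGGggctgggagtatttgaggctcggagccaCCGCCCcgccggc
The motifs searched were the GLI consensus GACCACCCA, the AP-1 site TGANTCA, the TEAD site GGAATG, the ZEB and SNAI site CACCTG, the SP1 site GGGCGG and the TATA box TATAAA, each on both strands, with overlapping matches counted. The GLI consensus was in none of the 8 member windows and in 0.216% of the 27305 windows of the same length. The SP1 letters were in 6 of the 8 and in 42.3% of all windows, with 6 matches in *FN1*, 4 in *THBS1*, 3 each in *TGFBI* and *LGALS3* and 1 in *TNC*. In *THBS1* the TEAD letters lay 46 to 41 bases before the start, and such letters were in 11.9% of all windows. The ZEB and SNAI letters were in none of the 8 and in 17.5% of all. The AP-1 letters and the exact letters TATAAA were found among the members in *POSTN*, and in 6.60% and 11.1% of all windows. Variants of the TATA letters were not searched, such as the atataag in the windows of *TNC* and *FN1*. The guanine and cytosine content was 54.8% in *TNC*, 69.6% in *THBS1*, 72.8% in *TGFBI*, 76.4% in *FN1* and 78.8% in *LGALS3*. A match here is a match of letters, and other stretches of these genes were not searched.

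Of 32 relatives, from the thrombospondin, tenascin, SPARC, fibulin, galectin and CCN families together with the adhesion protein gene *VTN*, 12 were tested, 3 were called higher and 1 lower, with a median log2 ratio of 0.18. Over all genes tested, 10.1% were called higher and 11.8% lower, and the single relative called lower is a share near that. *SMOC1*, of the SPARC family, had 39.6, 45.1 and 43.6 FPKM in iEV replicates 1 to 3 and 71.7, 73.4 and 72.1 FPKM in iGLI2 replicates 1 to 3, a log2 ratio of 0.75 (limma adjusted p = 0.00128). *SMOC1* thus rose in the same libraries in which *SPARC* was at or under 0.0557 FPKM. *NOV*, which encodes the matricellular protein CCN3, rose from 1.16 ± 0.544 to 3.64 ± 0.543 FPKM (SD, n = 3 each), by 1.12 on the log2 scale at an adjusted p of 0.0113 in limma. *LGALS8*, the gene of galectin-8, rose by 0.25 on the log2 scale (limma adjusted p = 0.0313), the opposite direction to *LGALS1* and *LGALS3*. Its call was lost without iEV replicate 2, iEV replicate 3, iGLI2 replicate 2 or iGLI2 replicate 3 (limma adjusted p from 0.0885 to 0.133). *CYR61*, which encodes CCN1, an integrin ligand and target of YAP, was the relative that fell. It had 16.7, 27.9 and 28.1 FPKM in iEV replicates 1 to 3 and 9.06, 9.36 and 11.3 FPKM in iGLI2 replicates 1 to 3, a log2 ratio of -1.18 (limma adjusted p = 0.0137). The call was lost without iEV replicate 2 (0.0554), iEV replicate 3 (0.0549) or iGLI2 replicate 2 (limma adjusted p = 0.0537). *THBS3*, another thrombospondin gene, stood at the threshold, with a log2 ratio of 0.57 and a limma adjusted p of 0.05003, and its limma adjusted p ran from 0.0105 to 0.148 over the alternative settings, on both sides of the threshold. Of the relatives that did not pass, the most abundant were *FSTL1*, *LGALS9* and *LGALSL*, with log2 ratios of 0.11, -0.14 and -0.30. The other members of the CCN family that were tested, *CTGF* and *WISP3*, had 0.26 and -0.13 and did not pass. With both replicate 1 libraries left out, *CTGF* passed as higher and *LGALSL* and *WISP3* as lower (limma adjusted p = 0.0271, 0.0140 and 0.0458). That fit called more genes, 5562 of 12503, than the fit of all libraries, 2742 of 12493.

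Receptors and binding partners of the members were described through 18 genes, of which 13 were tested. In all, 5 were called higher and 2 lower, against 10.1% and 11.8% of all genes tested, and the median log2 ratio was 0.074. The share called lower is near that of all genes. Integrin genes that were higher form known pairs. *ITGB1*, whose product pairs with many alpha chains, had 273, 265 and 270 FPKM in iEV replicates 1 to 3 and 578, 531 and 514 FPKM in iGLI2 replicates 1 to 3. *ITGA5*, which with integrin beta 1 makes the classical fibronectin receptor, had an iEV mean of 1.67 ± 0.497 FPKM and an iGLI2 mean of 5.03 ± 1.51 FPKM (SD, n = 3 each), higher by 1.16 on the log2 scale (limma adjusted p = 0.0199). It was higher while *FN1* was lower, but its call was lost without any 1 library other than iGLI2 replicate 1 (limma adjusted p from 0.0506 to 0.0691). *ITGA3*, whose product binds laminins, rose from 126 ± 8.52 to 288 ± 65.0 FPKM (SD, n = 3 each), also by 1.16 on the log2 scale (limma adjusted p = 0.00814). *SDC1*, a heparan sulfate proteoglycan of the cell surface, and *LRP1*, an endocytic receptor of thrombospondin-1, had log2 ratios of 0.68 and 1.23 (limma adjusted p = 0.0143 and 0.0349). *LRP1*, at 0.409 to 0.811 FPKM in iEV cells and 1.42 to 4.07 FPKM in iGLI2 cells, missed the threshold without any 1 library other than iGLI2 replicate 1 (limma adjusted p from 0.0896 to 0.104), and *SDC1* without iEV replicate 2 (0.0632) or iEV replicate 3 (0.0602). *LRP1* reached the mean of 1 FPKM only through its iGLI2 libraries. It could thus enter the test only as a gene that was higher, and it is 1 of the 5 called higher. The genes that were lower were *ITGB6*, whose product pairs with integrin alpha V to bind fibronectin, tenascin-C and latent TGF-beta, and *CD47*, the thrombospondin-1 receptor. *ITGB6* fell from 26.2 ± 1.92 to 18.0 ± 1.48 FPKM and *CD47* from 77.1 ± 3.82 to 56.7 ± 6.87 FPKM (SD, n = 3 each), with limma adjusted p of 0.0105 and 0.0263. *CD47* missed the threshold without any 1 library other than iGLI2 replicate 1 (0.0728 to 0.0973), and *ITGB6* without iEV replicate 2 (0.0508) or iEV replicate 3 (0.0508). The numbers called higher and lower were 2 and 0 without iEV replicate 2 or iEV replicate 3, 3 and 1 without iEV replicate 1, iGLI2 replicate 2 or iGLI2 replicate 3. *ITGB1* and *ITGA3* passed in all of these. Over all genes, these fits called 1222, 1295, 2165, 1362 and 1492 in that order, against 2742 with all libraries. *CD47* was thus lower and *LRP1* higher in the cells in which *THBS1* was higher. The most abundant genes of the list that did not pass were *CALR*, *LGALS3BP* and *SDC4*, with log2 ratios of 0.074, -0.093 and 0.049. *CALR* passed as higher without iGLI2 replicate 1 (limma adjusted p = 0.0330).

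Some genes of the lists fell short of the mean of 1 FPKM and were named after their values were seen. *ITGB3* had 0.112, 0.226 and 0.217 FPKM in iEV replicates 1 to 3 and 1.16, 1.90 and 1.48 FPKM in iGLI2 replicates 1 to 3, and *ITGA4* had 0.0924 to 0.180 and 0.539 to 0.868 FPKM. Both passed in the fit with no filter (limma adjusted p = 0.00372 and 0.00751). *COMP*, the gene of thrombospondin-5, was at 0.0178 to 0.159 FPKM in iEV and 0.755 to 1.57 FPKM in iGLI2 cells and passed there as higher (limma adjusted p = 0.0112). *THBS4* passed as lower (limma adjusted p = 0.0432), at 0.378 to 0.883 and 0.0830 to 0.224 FPKM. The matrix glycoprotein genes *MATN2*, at 0.137 to 0.235 and 0.695 to 0.794 FPKM, and *FBN1*, at 0.0754 to 0.0863 and 0.138 to 0.201 FPKM, passed as higher. Their limma adjusted p was 0.00144 and 0.0332. Over all genes, 3017 of 20035 were called in the fit with no filter. Low levels of this kind rest on few fragments, and their number is unknown.

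Other matrix glycoproteins were read from 22 genes, of which 11 were tested, 4 were called higher and 0 lower in limma (0 lower also at an unadjusted p under 0.05), against 10.1% and 11.8% of all genes tested, with a median log2 ratio of 0.16. *LTBP3* and *LTBP1*, whose products hold latent TGF-beta in the matrix, rose by 1.52 and 1.02 on the log2 scale (limma adjusted p = 0.00474 and 0.00289). *LTBP3* had 48.5, 50.4 and 48.2 FPKM in iEV replicates 1 to 3 and 102, 163 and 174 FPKM in iGLI2 replicates 1 to 3, with replicate 1 the lowest iGLI2 library as for *TNC* and *THBS1*. *MATN3*, which encodes matrilin-3, and *NID1*, which encodes the basement membrane protein nidogen-1, rose by 0.82 and 0.38 (limma adjusted p = 0.00273 and 0.0244). *NID1* missed the threshold without iEV replicate 2, iEV replicate 3, iGLI2 replicate 2 or iGLI2 replicate 3 (limma adjusted p from 0.0578 to 0.0899). *AGRN*, the most abundant of the list, had 163 to 222 FPKM over the libraries with groups that overlapped, and *LTBP2* and *HSPG2* also did not pass, with log2 ratios of -0.28 and 0.056. *LTBP2* passed as lower with both replicate 1 libraries left out (limma adjusted p = 0.0129). With both replicate 1 libraries left out, the numbers called higher and lower were 5 and 3 for relatives, 6 and 3 for receptors and binding partners and 5 and 1 for this list. Over all 12503 genes of that fit, 2706 were called higher and 2856 lower.

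**Figure D4:**
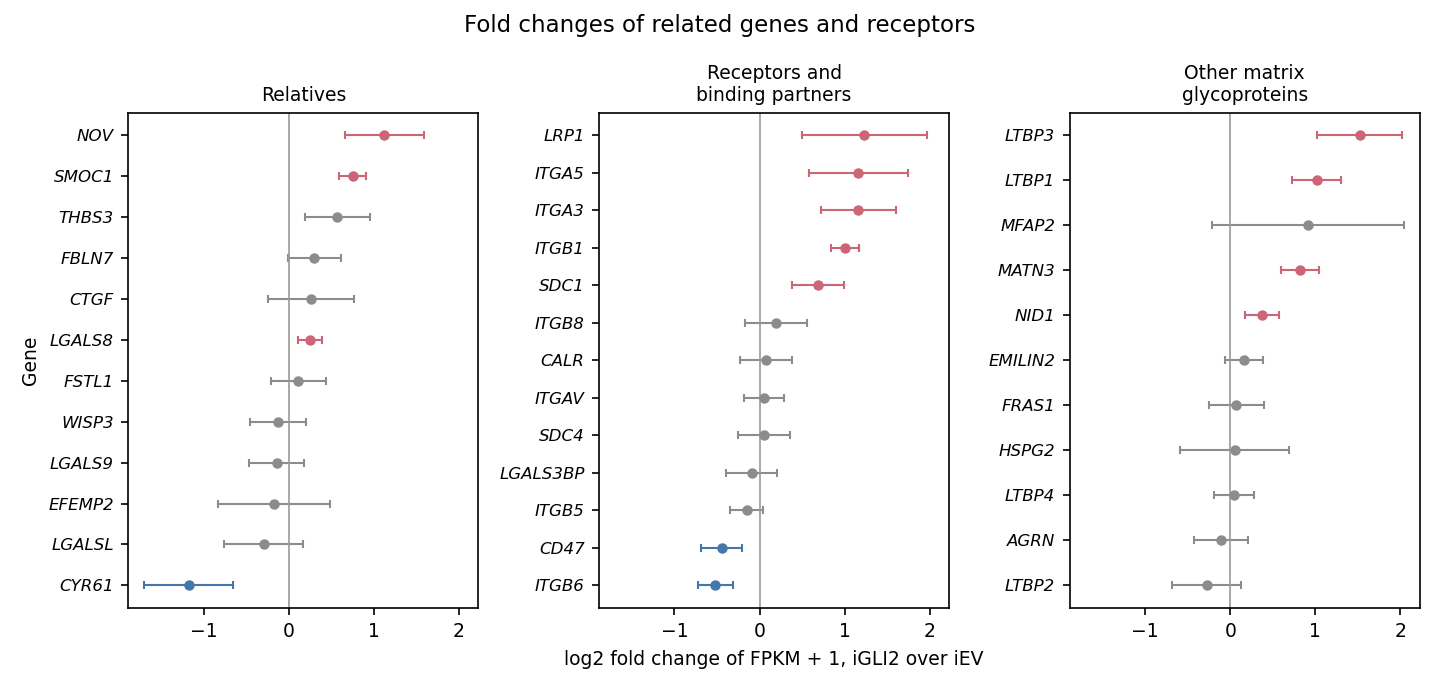
Log2 fold change of FPKM + 1 in iGLI2 over iEV cells, with 95% confidence intervals from limma, for the tested relatives, receptors and binding partners, and other matrix glycoproteins. Red marks genes called higher, blue genes called lower and grey genes that did not pass, and *CYR61*, *CD47* and *ITGB6* are the blue points.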

How the data were processed

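RNA-seq of 6 YAPC libraries, 3 iEV and 3 iGLI2 by the sample labels, was used. Per the labels and methods, the authors used Trimmomatic for trimming, TopHat2 for alignment (hg19) and Cuffdiff 2.1.1 for quantification, a version from the submitters' processing notes. The deposited values name no unit and were read as FPKM from their form and totals, and 0 columns lacked a sample. The annotation and the scaling between libraries are not given in the sources used here. Of 27024 entries, 1252 off the primary chromosomes and 330 with a repeated name and a lower mean were left out. Locus starts are given counted from 1. Genes averaging 1 FPKM or more were tested by limma 3.58.1 (R 4.3.3) on log2(FPKM + 1) (condition only, trended moderation, two-sided, Benjamini-Hochberg over all genes tested, threshold 0.05). An exact permutation test of 3 against 3 cannot go below p = 0.1. The test was tried on simulated data. Strands and exon overlaps came from GENCODE 44 lifted to GRCh37, and tables and plots were made with Python 3.11.15. The 10 genes, the lists and the alternatives were chosen with earlier results of these data known. Named genes were the members, GLI2, called genes of the lists, the most abundant uncalled ones, and the nearest profiles of the members with the largest rise and fall.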

Additional observations from a re-analysis of the deposited data

How the results depend on the processing

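Of the 7 called members, *THBS1*, *CTHRC1*, *FN1* and *LGALS3* kept their direction and stayed under the threshold in every setting that tested them, and *TNC*, *TGFBI* and *LGALS1* kept their direction. GLI2 stayed between 6.60 and 8.27 on the log2 scale. Requiring an adjusted p under 0.01 left 2 members called higher, and lists with 1 relative and 2 receptors higher and 0 of either lower. Over all 12493 genes, 540 were then called higher and 555 lower. *LGALS1* also missed the threshold under quantile normalization (limma adjusted p = 0.0556), with no filter (0.0522) and with a block for the number in the sample code (0.0565). The same sample code block ended the calls of *LRP1* (0.0516) and *LGALS8* (0.0592), leaving 4 receptors and 2 relatives higher. With it, 962 of 12493 genes were called higher. A mean of at least 5 FPKM left 3 receptors and 2 other glycoproteins higher, and 824 of the 9037 genes then tested. Receptors called lower numbered 1 under quantile normalization and 1 with small RNA genes left out, and relatives called lower numbered 2 with no filter. Genes called lower numbered 1523 of 12493, 1221 of 12164 and 1526 of 20035 in these settings. Leaving out single libraries, the numbers called higher and lower ranged from 2 to 4 and 2 to 3 for members, 2 to 4 and 0 to 1 for relatives, 2 to 6 and 0 to 2 for receptors and 3 to 5 and 0 to 0 for other glycoproteins. The low ends came without iEV replicate 2 or iEV replicate 3 for receptors and for members called higher. Over all genes, 2742 were called, 1262 of them higher, against 1790 of 3011 with small RNA genes left out and 1222 to 3744 with a library left out. Leaving out both replicate 1 libraries, chosen after seeing the data, gave 5 relatives higher and 3 lower and 1 other glycoprotein lower. In that setting 5562 of 12503 genes were called. The causes were not tested. Of the named list genes, *SMOC1*, *ITGB1*, *ITGA3*, *LTBP1*, *LTBP3* and *MATN3* passed wherever tested. Called genes did not change direction. Genes that had not passed changed it, with values over single libraries left out from -0.19 to 0.023 for *AGRN*, -0.0039 to 0.21 for *CALR*, -0.033 to 0.19 for *FSTL1*, -0.13 to 0.31 for *HSPG2*, -0.17 to 0.023 for *LGALS3BP*, -0.24 to 0.0032 for *LGALS9* and -0.084 to 0.14 for *SDC4*. *LGALS3BP* was 0.012 under quantile normalization, and without both replicate 1 libraries *LGALS3BP* was 0.075, *SDC4* -0.056 and *FSTL1* -0.00011.

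Same-numbered libraries deviated together with correlations of 0.204, 0.0919 and 0.0276 across genes, so the numbers were not taken to pair the samples. With the replicate number as a block, 3928 genes were called, relatives numbered 5 higher and 2 lower and other glycoproteins 1 lower, and 4 members were higher and 3 lower. The block added *THBS3* (limma adjusted p = 0.0158) and *CTGF* (0.0320) as higher and *LGALSL* (0.0243) and *LTBP2* (0.0389) as lower. Depth is unknown and limits what can be said of genes under 1 FPKM, *SPARC* and *POSTN* included.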
